A study of Mus musculus with 6 samples.

Results

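The cytosolic ribosomal protein genes were examined in *Hoxa9*/*IRX3* against *Hoxa9*/MTV mouse leukemia cells. Members were chosen by symbol alone, as Rpl or Rps followed by a number, a P-stalk name or Rpsa, with ribosomal S6 kinases, *Rps19bp1* and symbols carrying -ps left out. This gave 91 genes of the 41128 in the table. Of these, 77 encode standard ribosomal proteins (31 of the small subunit, 43 of the large subunit and 3 of the P-stalk), 8 are paralogs and 6 are retrocopies, which are intronless copies of a spliced mRNA. *Fau* and *Rack1*, which also encode parts of the ribosome, do not carry such symbols and were outside the rule.

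KIT+ bone marrow cells of female CD45.1+ mice (B6.SJL-PtprcaPepcb/BoyJ) were transduced with retroviral FLAG-tagged *Hoxa9*, a homeobox gene that drives leukemia, together with either a MYC-tagged human *IRX3* cDNA or the empty vector MTV. They were transplanted with CD45.2+ support marrow into lethally irradiated female C57BL/6 recipients, so both cohorts carry *Hoxa9* and differ in the second vector. The paper also reports later onset of leukemia and a larger share of blast cells in *Hoxa9*/*IRX3* recipients. Viable CD45.1+ KIT+Gr1+ cells were flow sorted from thawed marrow of sick mice, and polyA RNA was sequenced with 1 library per mouse. The *Hoxa9*/MTV cohort (n = 3) held mice 1.1, 1.2 and 1.4, and mice 3.2, 3.3 and 3.5 made up the *Hoxa9*/*IRX3* cohort (n = 3). The mice of a cohort are separate animals, but the libraries do not show how many clones each leukemia held.

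A ribosome is built from a small subunit, which reads the mRNA, and a large subunit, which forms the peptide bond. Each standard protein occurs once per ribosome, apart from the P-stalk proteins, and the genes are among the most highly expressed in dividing blood cells. Their mRNAs begin with a run of pyrimidines, the TOP motif, through which growth signalling sets their translation, and loss of 1 copy of several of them causes Diamond-Blackfan anemia. Each mRNA has also been reverse transcribed and inserted in the genome many times, and these processed pseudogenes carry the spliced sequence without introns.

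The authors deposited RPKM, which are reads per kilobase of the whole gene span (introns included) scaled to the reads of the library. Low values recovered 7979246 to 9803621 reads per library. The mouse *Irx3* gene was at 15.1, 0.421 and 0.148 RPKM in mice 3.2, 3.3 and 3.5 and listed at 0 in each control mouse, although the introduced cDNA is human, so that this row is a weak check of the labels. Of the gate's genes, *Kit* was at 2.49 to 3.12 RPKM against 1.63 to 2.70, and *Ly6g* was higher by 1.35 on the log2 scale (adjusted p = 0.021, limma). The summed RPKM of 12 neutrophil markers ranged from 2738 to 4146 in *Hoxa9*/MTV and from 5565 to 6836 in *Hoxa9*/*IRX3* mice. *Elane* alone, at 715, 1053 and 614 against 3324, 3332 and 2237, made up most of this gap. Of the 12 markers 2 passed, *Elane* and *Retnlg*, and both rose. The estimates of *Ltf* (-0.99), *Mmp8* (-0.75) and *Ngp* (-0.13) were negative, and the others were positive. Of 9 monocyte and macrophage markers tested, *Klf4*, *Ccr2* and *Ms4a6c* fell (sums 541 to 580 against 482 to 879). These sums were mostly *Ly6c2*, also a gene of the gate, which did not pass. It was at 413, 479 and 440 against 414, 790 and 844 (log2 change 0.56). The mast cell and basophil sum was 14.5 to 20.2 against 4.51 to 7.31, with *Cpa3* and *Gata2* lower. In that list 3 of 7 genes were at 0 in all mice. *Ms4a2* was higher in every *Hoxa9*/*IRX3* mouse without passing (0.290, 0.279 and 0.542 against 1.09, 0.610 and 0.933). Of the B cell list, with 3 of 8 genes tested and sums of 6.45 to 7.33 against 2.01 to 43.4, *Cd79b* fell (6.11, 7.07 and 7.01 against 0.330, 0.149 and 2.31). *Igll1* was at 0.0312 to 0.102 against 1.19, 9.11 and 38.4 (adjusted p = 0.0776). The T and NK cell sum of 22.7 to 33.0 against 14.9 to 482 was nearly all *Nkg7*, at 482 in mouse 3.5, and of the dendritic cell list *Flt3* fell (adjusted p = 0.0102). *Pax5*, *Ms4a1*, *Cd3d*, *Hba-a1*, *Alas2* and *Ppbp* of the B, T, red cell and platelet lists were at 0 in all 6 mice. The part of these marker shifts in the values of ribosomal protein genes was not tested. In sorted but bulk samples, fewer cells of a type and less RNA per cell cannot be told apart.

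*Rps13* and *Rps27*, both of the small subunit, fell in *Hoxa9*/*IRX3* leukemias, and *Rpl13a* of the large subunit rose. These were 3 of the 83 members that were protein coding and exceeded 0.5 RPKM in at least 1 mouse, 3.61% against 5.36% of all 9522 tested genes at an adjusted p under 0.05 (limma on log2(RPKM + 0.5), Benjamini-Hochberg over all tested genes). By direction, 1 member rose (1.84% of all genes did) and 2 fell (3.52% of all genes). *Rps13* alone also changed at least 2-fold, a limit that 3.13% of all genes passed and 2.03% passed as lower. By the study's criterion (means that differ more than 2-fold at an unadjusted p under 0.05), *Rps13* was again the 1 member called, against 6.97% of all genes. The all-gene split of 175 higher and 335 lower depended on the scaling, with 234 higher and 274 lower after quantile normalization and 123 higher and 588 lower after centring on the median member.

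The remaining 80 tested members did not pass. The median change over 83 members was 0.02 on the log2 scale, against -0.06 over all tested genes, with quartiles of -0.14 and 0.19. Estimates were positive for 44 members and negative for 39. Changes within 0.5 on the log2 scale were found for 73 members (88.0%), against 77.0% of all genes, and the median absolute change was 0.167 against 0.242. The median SE of a member's change was 0.20. At an unadjusted p under 0.05 there were 9 members, 3 higher and 6 lower (10.8% against a background of 24.3%, 8.34% higher and 16.0% lower). The cohorts did not overlap for 11 members (13.3%), where 33.7% of all genes showed no overlap, 12.2% higher and 21.6% lower. They were *Rpl13a*, *Rpl15*, *Rpl27*, *Rpl31*, *Rpl41* and *Rps26*, with every *Hoxa9*/*IRX3* mouse above every *Hoxa9*/MTV mouse, and *Rpl35a*, *Rps12*, *Rps13*, *Rps18* and *Rps27*, with every *Hoxa9*/*IRX3* mouse below.

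**Figure D1:**
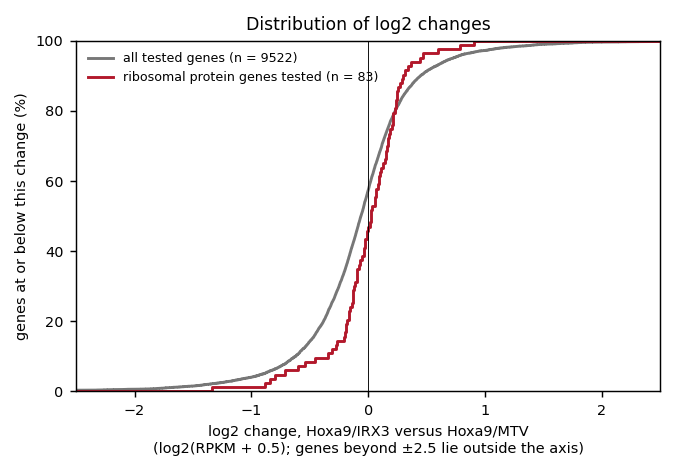
Cumulative share of genes (%, vertical) at or below each log2 change between cohorts (horizontal, log2(RPKM + 0.5)), for the 83 tested ribosomal protein genes in red and all 9522 tested genes in gray. The red curve is steeper, with 88.0% of members within 0.5 of 0 against 77.0% of all genes, and crosses 50% at 0.02 where the gray curve does at -0.06.

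In the cumulative plot the lower quartile of the members (-0.14) lay closer to 0 than that of all genes (-0.32). The upper quartile did not, at 0.19 for the members against 0.17 for all genes. By subunit, 0 small-subunit genes rose and 2 of 31 fell by limma (6.45% called, against the 5.36% of all genes), with a median of 0.02. At an unadjusted p under 0.05 there were 0 and 4 of them (12.9% against 24.3%), and voom on recovered reads, which called 5.18% of all genes, called 0 and 1. Of 43 large-subunit genes outside the P-stalk, 1 rose and 0 fell (2.33% called; unadjusted 3 and 2, 11.6%; voom 0 and 0), with a median of 0.04. The 3 P-stalk genes had 0 calls by limma (unadjusted 0, voom 0) and a median of 0.30. For the 5 tested paralogs there were likewise 0 calls (unadjusted 0, voom 0), with a median of 0.02.

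**Figure D2:**
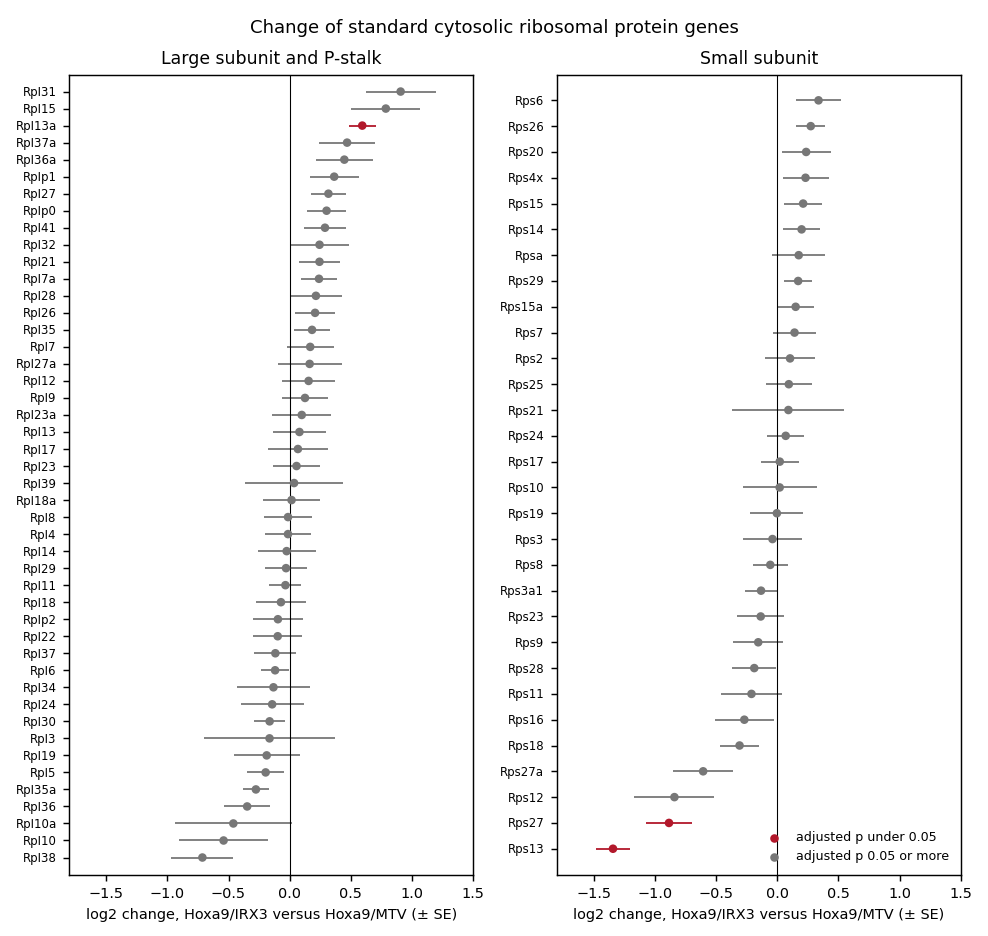
Log2 change (horizontal, ± SE) of the standard genes reported here, large subunit and P-stalk on the left and small subunit on the right, ordered by change. Red points passed an adjusted p of 0.05 (*Rps13* and *Rps27* lower, *Rpl13a* higher), and gray points did not.

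Ordered by change, most of the genes drawn clustered around 0, while *Rps13* stood apart at the lower end. The bars also differ in width, since mice of 1 cohort differed widely for genes such as *Rpl3*, *Rpl10a* and *Rps21*.

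The 3 genes that passed are shown with 30 bases of spliced coding sequence. These bases, interrupted by an intron in the gene, occur uninterrupted in intronless copies elsewhere in the genome. Each junction was picked because a copy holds its 30 bases, so this match was fixed by the choice. Lower case marks the last 15 bases of an exon and capitals the first 15 of the following exon. On GRCm38, the *Rps13* junction joins exons 3 and 4 of 6 (chromosome 7, minus strand, bases 116333696 and 116333098), and the same 30 bases lie uninterrupted in *Rps13-ps2* at chr7:88530733-88530762. That of *Rps27* joins exons 2 and 3 of 4 (chromosome 3, minus strand, bases 90213193 and 90213044), and its letters lie in the retrocopy *Rps27rt* at chr9:114982578-114982607. For *Rpl13a* the junction joins exons 4 and 5 of 8 (chromosome 7, minus strand, bases 45126991 and 45126794), and its letters lie in *Gm11478* at chr11:86630769-86630798. All 3 copies are on the minus strand.
Rps13: ctccctcccagatagGTGTAATCCTGAGGG
Rps27: acgtgaaatgcccagGATGCTATAAAATCA
Rpl13a: ggcgcactgtgcgagGCATGCTGCCCCACA

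*Rps13* (chr7:116331505-116334195, minus strand), whose protein uS15 sits near the bridge between the subunits, had the largest change of any member. Its RPKM was 7.12, 6.95 and 7.28 in mice 1.1, 1.2 and 1.4 and 3.03, 2.36 and 2.19 in mice 3.2, 3.3 and 3.5. Every *Hoxa9*/*IRX3* mouse was below every *Hoxa9*/MTV mouse, and mice of a cohort lay close together. Mean RPKM was 7.12 ± 0.164 against 2.53 ± 0.442 (SD, n = 3 each), and the log2 change was -1.34 (SE 0.14, adjusted p = 0.00652, limma). Leaving out single mice gave changes of -1.46 to -1.26, and the call was lost without mouse 1.4 (adjusted p = 0.0506). Behind these RPKM were about 169, 155 and 189 reads against 72, 62 and 47. *Snord14a*, a small nucleolar RNA gene nested in an intron, held 12, 9 and 14 of them against 3, 3 and 2, and without such reads the adjusted p was 0.00695. Over the alternatives that kept all mice, the call held in 14 of 15.

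Neither of the 2 copies of *Rps13* that were tested passed. *Rps13-ps2*, which matches the coding sequence at 100% identity, had RPKM of 39.4, 43.6 and 45.0 against 39.6, 27.7 and 52.0 (log2 change -0.14, adjusted p = 0.759 in a fit of all gene types), and its cohorts overlapped. *Rps13-ps4*, at 1.49, 4.22 and 2.27 RPKM against 0.990, 1.12 and 1.65, also overlapped (log2 change -0.78, adjusted p = 0.259 in that fit). Copies took 59.9% of the reads of *Rps13* and its copies together. Summing gene and copies gave a log2 change of -0.66 (adjusted p = 0.101), so the call was lost. Of the 75-base windows of the *Rps13* coding sequence, 0% lay inside 1 exon without also occurring in a pseudogene transcript, and 100% of those across a junction occurred in one.

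*Rps27* (chr3:90212522-90213651, minus strand) encodes a zinc-finger protein of the small subunit. Its RPKM was 8.63, 9.05 and 13.1 in mice 1.1, 1.2 and 1.4, against 5.83, 5.15 and 4.78 in mice 3.2, 3.3 and 3.5. The cohorts did not overlap, with mouse 1.4 the highest. Mean RPKM was 10.3 ± 2.47 against 5.25 ± 0.530 (SD, n = 3 each), a log2 change of -0.88 (SE 0.19, adjusted p = 0.0476, limma). The call was lost whichever mouse was left out (adjusted p 0.0513 to 0.139) and held in 8 of the 15 alternatives that kept all mice, with adjusted p-values of 0.128 by voom and 0.102 with sample weights. On its retrocopy *Rps27rt*, itself a member, RPKM was 105, 117 and 113 against 88.5, 75.8 and 143 (log2 change -0.18, adjusted p = 0.688). Copies took 81.7% of the reads of *Rps27* and its copies, and the sum changed by -0.31 on the log2 scale (adjusted p = 0.425), so that this call was lost as well.

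*Rpl13a* (chr7:45125558-45128761, minus strand) encodes uL13, which is also known outside the ribosome as a repressor of inflammatory mRNAs in myeloid cells. RPKM was 6.66, 6.38 and 6.36 in mice 1.1, 1.2 and 1.4, against 10.1, 10.4 and 9.55 in mice 3.2, 3.3 and 3.5. Both cohorts were tight and did not overlap. The mean was 6.47 ± 0.168 against 10.01 ± 0.426 (SD, n = 3 each), a rise of 0.59 on the log2 scale (SE 0.11, adjusted p = 0.0358, limma). The call held without mouse 3.2 or 3.5 and was lost without 1.1, 1.2, 1.4 or 3.3 (adjusted p 0.0415 to 0.158 over the 6). The gene hosts *Snord32a*, *Snord33*, *Snord34* and *Snord35a*, and without their reads the rise was 0.85 (adjusted p = 0.0315). With all mice kept, 11 of 15 alternatives held the call.

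Most reads of the *Rpl13a* sequence were on its copies, which held 85.2% of the total. Unlike in *Rps13* and *Rps27*, 13.5% of its 75-base coding windows lay inside 1 exon and in no pseudogene transcript. Of those across a junction, 8.72% occurred in one. The copy *Gm11478* had RPKM of 234, 327 and 255 against 271, 172 and 283, and its cohorts overlapped. The sum of gene and copies changed by -0.06 on the log2 scale (adjusted p = 0.871), which turns the direction. *Rpl13a* also overlaps *Flt3l* on the same strand, where 155, 112 and 153 reads against 75, 169 and 65 were counted.

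**Figure D3:**
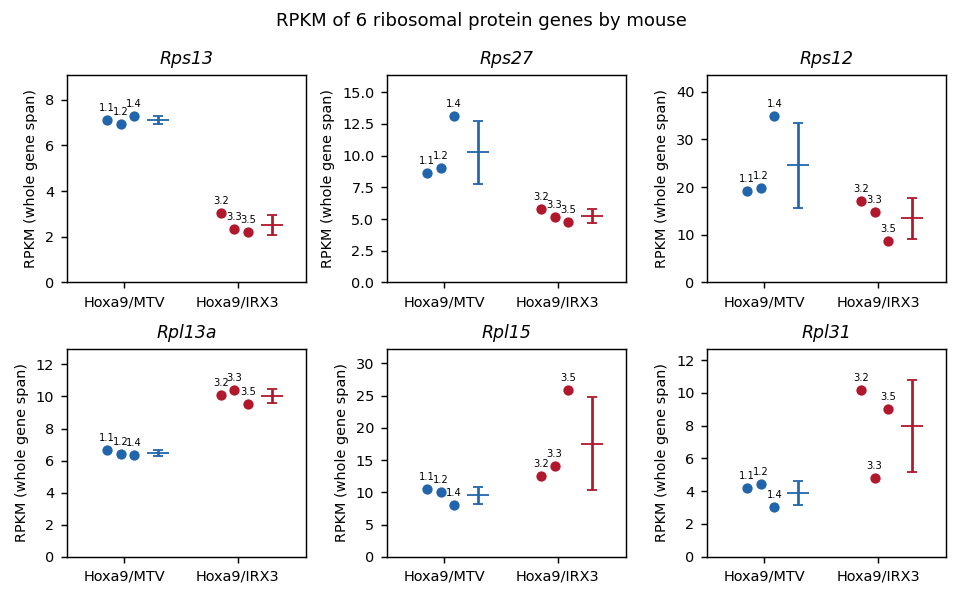
RPKM (vertical, per kilobase of the whole gene span, each panel from 0) of 6 ribosomal protein genes in each mouse, *Hoxa9*/MTV in blue and *Hoxa9*/*IRX3* in red, with the mean and SD beside the points. No panel shows overlap between the cohorts, and the spread is narrow for *Rps13* and *Rpl13a* and wide for *Rps12*, *Rpl15* and *Rpl31*.

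The per-mouse plot sets the 3 genes that passed beside *Rps12*, *Rpl15* and *Rpl31*, whose changes were of similar size without passing. *Rps12* (chr10:23785183-23787275, minus strand) encodes a protein of the head of the small subunit. Its RPKM was 19.1, 19.8 and 34.9 against 17.0, 14.8 and 8.71 (log2 change -0.84, SE 0.33, adjusted p = 0.181). The lowest *Hoxa9*/MTV value and the highest *Hoxa9*/*IRX3* value were close, and the gap came mainly from mice 1.4 and 3.5. *Rps27a*, which is made as a fusion with ubiquitin, was at 9.74, 10.8 and 9.18 against 9.32, 5.72 and 4.71 (log2 change -0.61, adjusted p = 0.191). Mouse 3.2 lay within the *Hoxa9*/MTV range, and without it the change was -0.87 (adjusted p = 0.0296, limma). In no other alternative tried did *Rps27a* pass.

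Among large-subunit genes the largest estimate was that of *Rpl31* (chr1:39367842-39371911, plus strand), whose protein lies at the exit of the peptide tunnel. RPKM was 4.21, 4.42 and 3.03 against 10.2, 4.83 and 8.99 (log2 change 0.91, SE 0.29, adjusted p = 0.12). Mouse 3.3 was nearly level with the *Hoxa9*/MTV mice, and without it the adjusted p was 0.0254 (limma). No other alternative tried gave *Rpl31* a call. *Tbc1d8*, which overlaps on the opposite strand, had 639, 722 and 700 reads against 1451, 551 and 815, with the lowest count in mouse 3.3. For *Rpl31* that mouse was the lowest of its own cohort only, above every *Hoxa9*/MTV mouse. *Rpl15* (chr14:18267823-18271391, minus strand), a gene of Diamond-Blackfan anemia, was at 10.5, 10.02 and 8.05 RPKM against 12.6, 14.1 and 25.8 (log2 change 0.78, SE 0.28, adjusted p = 0.154). Its highest value was that of mouse 3.5. Summed with their copies, *Rpl31*, *Rpl15* and *Rps12* kept log2 changes of 0.55, 0.80 and -0.81 without passing (adjusted p = 0.143, 0.123 and 0.177, limma).

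Smaller positive estimates were those of *Rpl37a* and *Rpl36a*. *Rpl37a*, a zinc-binding protein of the large subunit, was at 5.01, 5.00 and 4.87 RPKM against 8.36, 4.76 and 8.75 (log2 change 0.47, adjusted p = 0.261). Mouse 3.3 was the lowest of the 6, and without it the change was 0.73 (adjusted p = 0.0279, limma), the only alternative tried in which *Rpl37a* passed. For *Rpl36a* RPKM was 2.86, 2.30 and 3.52 against 4.64, 5.04 and 2.86 (log2 change 0.45, adjusted p = 0.286), and the cohorts overlapped. Copies took 90.8% of the reads of *Rpl36a* and its copies. The sum of gene and copies did not overlap between cohorts and did not pass (log2 change 0.44, adjusted p = 0.112, limma).

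At the other end of the large subunit stood *Rpl38*, *Rpl10* and *Rpl10a*. *Rpl38*, known for its part in translating Hox mRNAs in the embryo, was at 4.63, 3.16 and 5.73 RPKM against 3.29, 2.49 and 1.84 (log2 change -0.71, SE 0.25, adjusted p = 0.151). The ranges met, with mouse 3.2 just above mouse 1.2, and summed with its copies *Rpl38* changed by 0.10 in the other direction. *Rpl10*, which is mutated in T cell leukemia, was at 28.9, 36.4 and 46.4 against 31.3, 34.8 and 14.2 (log2 change -0.54, adjusted p = 0.397). *Rpl10a*, a protein of the L1 stalk, was at 29.9, 27.3 and 40.0 against 41.5, 27.8 and 10.5 (log2 change -0.46, adjusted p = 0.584). In both, mouse 3.5 was far below the rest, and without single mice the *Rpl10a* change ran from -0.88 to 0.09.

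The P-stalk recruits the elongation factors. *Rplp0*, its base, was at 84.9, 105 and 92.0 RPKM against 121, 100 and 127 (log2 change 0.30, SE 0.16, adjusted p = 0.298). *Rplp1* was at 82.2, 108 and 102 against 120, 105 and 154 (log2 change 0.36, SE 0.20, adjusted p = 0.308). *Rplp2*, the partner of *Rplp1* in the stalk dimer, was at 7.56, 5.37 and 7.19 against 8, 5.73 and 5.11 (log2 change -0.10). All 3 cohort pairs overlapped, although for *Rplp0* and *Rplp1* only mouse 3.3 fell inside the *Hoxa9*/MTV range.

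The next 5 genes have a role in ribosome disorders, anemia or p53 signalling, and their estimates were within 0.20. They are not all of the members with such a role, and *Rpl15* above and *Rpl35a* below are others. *Rps19*, the gene most often mutated in Diamond-Blackfan anemia, was at 1.99 ± 0.507 RPKM in *Hoxa9*/MTV and 1.99 ± 0.503 in *Hoxa9*/*IRX3* mice (SD, n = 3 each; adjusted p = 0.995). *Rps14*, whose loss gives the anemia of the 5q- syndrome, was at 4.27 ± 0.574 against 4.97 ± 0.692 (log2 change 0.20, adjusted p = 0.456). *Rpl5* and *Rpl11*, which bind MDM2 and so stabilize p53, were at 6.68 ± 0.962 against 5.75 ± 0.611 and at 0.507 ± 0.0886 against 0.481 ± 0.0486, with log2 changes of -0.20 and -0.04. *Rpl22*, deleted in some T cell leukemias, was at 14.8 ± 1.21 against 14.1 ± 3.34 (log2 change -0.10). None of these 5 passed the test. *Rpl11* is at the level of the pseudocount, which shrinks its estimate.

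Further genes with roles of their own did not pass either. *Rps6*, the target of S6 kinase, was at 8.46, 10.7 and 9.31 RPKM against 13.6, 9.52 and 13.6 (log2 change 0.34, SE 0.18, adjusted p = 0.305), with mouse 3.3 inside the *Hoxa9*/MTV range. *Rps3*, which also repairs DNA, changed by -0.04. Estimates for *Rps20* and *Rpsa*, the latter also a laminin receptor, were 0.24 and 0.18. *Rps26*, which reads bases ahead of the start codon, was higher in every *Hoxa9*/*IRX3* mouse (6.69, 7.06 and 7.37 against 8.96, 8.93 and 7.99 RPKM) without passing (log2 change 0.27, adjusted p = 0.214). The same held for *Rpl41*, the smallest of the proteins, at 86.0, 109 and 104 against 112, 112 and 143 RPKM (log2 change 0.29, adjusted p = 0.346). *Rpl35a*, also of Diamond-Blackfan anemia, was lower in all *Hoxa9*/*IRX3* mice at 2.69, 2.54 and 2.58 against 3.36, 3.00 and 3.43 (log2 change -0.28, adjusted p = 0.169), and *Rps29* changed by 0.17.

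Paralogs can take the place of a standard protein in the ribosome. *Rpl10l* and *Rpl39l*, both known from the testis, were listed at 0 in all 6 mice. *Rps4l* was at 0 except for 0.479 RPKM in mouse 3.2. *Rpl22l1* was at 7.37, 12.4 and 3.94 RPKM against 2.41, 5.75 and 4.18 (log2 change -0.80, SE 0.44, adjusted p = 0.308), with overlapping cohorts. *Rpl3l*, a muscle form, ranged from 0.149 RPKM in mouse 3.2 to 1.90 in mouse 3.3, both *Hoxa9*/*IRX3*, with a change of -0.10. *Rps27l*, a target of p53, and *Rpl36al* changed by 0.02 and 0.06, and *Rpl7l1*, a nucleolar protein, by 0.26.

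The log2 ratio of paralog to standard gene was compared for the 5 pairs whose paralog exceeded 0.5 RPKM in at least 1 mouse, by an exact two-sided permutation test in which 3 mice against 3 allow no p below 0.1. For *Rps27l* to *Rps27* it was -2.49 ± 0.355 in *Hoxa9*/MTV and -1.58 ± 0.215 in *Hoxa9*/*IRX3* mice (SD, n = 3 each), a difference of 0.91 (exact p = 0.1, 0.25 adjusted over the 5 pairs). *Rps27l* itself changed by 0.02, as given above, and *Rps27* by -0.88. For *Rpl36al* to *Rpl36a* it was 1.01 ± 0.00496 against 0.623 ± 0.212, a difference of -0.39 (exact p = 0.1, adjusted 0.25). *Rpl22l1* to *Rpl22* differed by -0.70 with overlap (exact p = 0.3, adjusted 0.5). The ratios of *Rpl3l* and *Rpl7l1* to their partners differed by 0.07 and 0.09 (exact p = 0.8 and 0.6, adjusted 0.8 and 0.75). These ratios use log2(RPKM + 0.5) of the deposited values, so intron length sets their level and, for low genes, how far the pseudocount shrinks a difference.

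Mice of 1 cohort differed from each other, by the median gene, more among members than among all genes. The median within-cohort SD on the log2 scale was 0.180 in *Hoxa9*/MTV and 0.312 in *Hoxa9*/*IRX3* mice, against 0.121 and 0.242 over all tested genes. Mouse 3.5 was the highest of the 6 for 23 members (27.7%, against 14.1% of all genes) and the lowest for 26 (31.3%, against 33.3%). Mouse 3.2 was the highest for 24 (28.9%, against 20.4%) and the lowest for 4 (4.82%, against 16.9%). Mouse 3.3 was the lowest for 20 (24.1%, against 16.4%). Mouse 1.4 was the highest for 16, or 19.3%, close to the 20.1% of all genes.

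**Figure D4:**
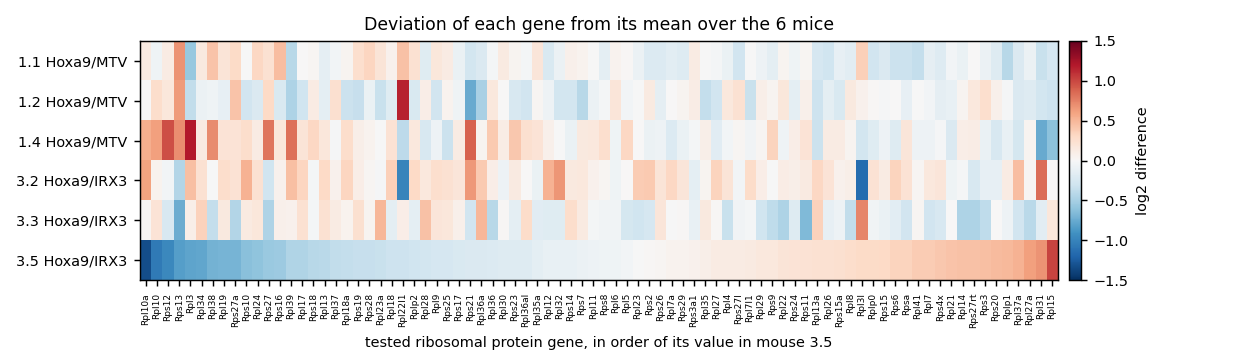
Difference of each ribosomal protein gene reported here (columns, ordered by mouse 3.5) from its own mean over the 6 mice (rows), as a log2 difference on log2(RPKM + 0.5), red above and blue below the mean. The row of mouse 3.5 runs from *Rpl10a*, *Rpl10*, *Rps12* and *Rps13* at the low end to *Rpl15* at the high end, and the *Hoxa9*/MTV row of mouse 1.4 is red for several genes of the low end.

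The heat map shows that the genes did not move as 1 block. In mouse 3.5 *Rpl10a*, *Rpl10*, *Rps12* and *Rpl3* lay far below their means and *Rpl15* and *Rpl31* above. *Rpl3*, the gene of a core large-subunit protein, was at 5.33, 6.18 and 19.3 RPKM against 11.3, 8.72 and 4.52 (log2 change -0.16, SE 0.53, adjusted p = 0.873), so that mice 1.2 and 1.4 of 1 cohort differed more than the cohorts did. *Rps21* (3.49, 2.37 and 8.41 against 7.07, 3.44 and 3.63) and *Rpl39* (2.78, 2.67 and 7.28 against 5.48, 4.07 and 2.70) likewise had their highest value in mouse 1.4, with changes of 0.09 and 0.04.

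The members' summed level differed between cohorts by less than the spread between mice. They held 1.02% ± 0.0462 of the summed RPKM in *Hoxa9*/MTV and 1.01% ± 0.126 in *Hoxa9*/*IRX3* mice (SD, n = 3 each). Of the recovered library reads they held 0.588%, 0.659% and 0.660% in mice 1.1, 1.2 and 1.4 and 0.692%, 0.570% and 0.739% in mice 3.2, 3.3 and 3.5. Mouse 3.3 was the lowest and mouse 3.5 the highest of the 6, both of 1 cohort.

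Levels differed far more between genes than between cohorts. They were rescaled to the bases covered by an exon of any annotated transcript, which can include introns of other transcripts. For *Rps13* this was the whole span of 2691 bases and for *Rplp1* 499 of 1259, so introns are not removed alike. High mean levels over 6 mice were those of *Rpl8* (699 RPKM per kilobase of exon), *Rpl4* (283), *Rplp1* (282) and *Rplp0* (270). The lowest of the tested standard genes were *Rps28* (1.49), *Rps19* (2.31), *Rpl35a* (3.11), *Rpl18* (3.96) and *Rpl35* (4.24). Neighbours in this order such as *Rpl4*, *Rplp1* and *Rplp0* lay within their spread over mice, and *Rpl8* stood apart. *Rpl8* was at 377, 464 and 432 deposited RPKM against 446, 325 and 506 (log2 change -0.01). The median over the standard genes was 13.9 RPKM per kilobase of exon. Depth followed the level: 27 tested members had fewer than 100 reads in at least 1 mouse, and 6 had 1000 or more in every mouse.

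This range was set beside where a read of each gene could align, since the authors aligned to the genome with Bowtie2, which does not split a read over an intron. Over the 77 standard genes, a median of 56.2% of 75-base windows of the coding sequence crossed an exon junction, and 82.0% of these windows occurred whole in a pseudogene transcript. A median of 5.64% lay inside 1 exon and in no pseudogene transcript, and for 30 genes there was no such window. The level per kilobase of exon and this share had a Spearman correlation of 0.53 across the 77 genes, which share libraries and are not independent. The exon length behind this level has the limit given above. Genes with the larger share of unique windows had a median level of 30.1 and the others one of 9.43.

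Copies of the standard genes were matched by BLAST at 85% identity or more over at least 50% of the coding sequence. There were 938 such rows for 75 of the 77 genes, of which 227 carry -ps symbols and 392 had reads. *Rpl8* and *Rps3* had no copy. Copies held 0.982%, 1.22% and 1.02% of library reads in mice 1.1, 1.2 and 1.4 and 1.17%, 0.887% and 1.35% in mice 3.2, 3.3 and 3.5, against 0.519%, 0.584% and 0.589% and 0.618%, 0.499% and 0.642% on the standard genes. In every mouse copies thus held more reads than the genes, 1.74 to 2.11 for each read on a gene. For 45 genes most reads of the gene and its copies were on the copies, and for 15 over 90% were. Examples are *Rps19* with 94.8%, *Rps6* with 94.2%, *Rpl14* with 92.3%, *Rpl11* with 91.4%, *Rpl5* with 89.1% and *Rpl4* with 81.8%.

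**Figure D5:**
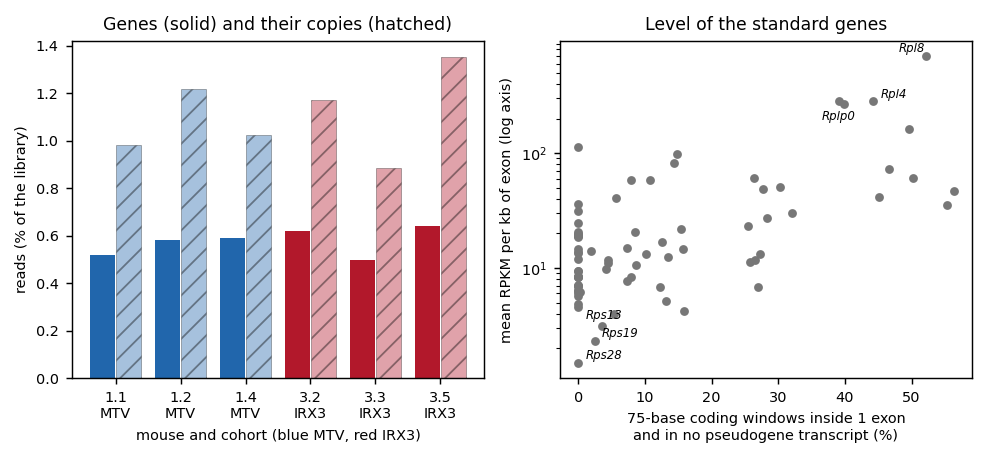
Left, percent of recovered library reads on the standard ribosomal protein genes (solid) and on their copies (hatched) in each mouse, *Hoxa9*/MTV in blue and *Hoxa9*/*IRX3* in red. Right, mean level of each gene reported here (RPKM per kilobase of exon, log axis) against the percent of 75-base coding windows inside 1 exon and in no pseudogene transcript. Copies exceed genes in all 6 mice. *Rpl8* at 699 lies toward the right, as do *Rpl4*, *Rplp1* and *Rplp0*. *Rpl41* at 113 lies at 0%, and *Rps9*, farthest right at 56.3%, is at 46.9.

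As the bar plot shows, mouse 3.3 was the lowest and mouse 3.5 the highest for both genes and copies. Of 219 copies tested in a fit of all gene types, 1 passed as higher and 0 as lower at an adjusted p under 0.05 (limma; background 2.55%; unadjusted p under 0.05 for 8 and 11). The cohorts did not overlap for 10 copies that were higher (4.57%, background 11.2%) and 11 that were lower (5.02%, background 19.0%). The one was *Gm10180*, a copy of *Rpl41* of 78 bases, and it rests on 3, 1 and 1 reads in mice 3.2, 3.3 and 3.5 against 0 in the other cohort, so that no change is read from it. When each of the 77 standard genes was summed with its copies, per kilobase of coding sequence, 0 of 83 members were called (limma, background 5.29%, unadjusted 4 higher and 2 lower). The other 6 tested members kept their own values, and *Rps27rt* also entered the sum of *Rps27*. The median change was then 0.10, and the range was -0.81 to 0.80. The retrocopies of the rule that were not annotated as protein coding, and so were not tested, showed no separation of the cohorts either. *Rpl37rt* was at 64.6, 73.7 and 68.7 RPKM against 70.7, 68.8 and 99.1, *Rps3a2* at 12.6 ± 1.48 against 11.8 ± 4.76 and *Rps3a3* at 32.5 ± 5.07 against 31.8 ± 5.24 (SD, n = 3 each). *Rps12l1* and *Rps12l2* did not exceed 1.57 and 0.658 RPKM.

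Ribosomal protein genes host many small nucleolar RNAs, which guide the modification of ribosomal RNA. There were 59 such rows inside 30 members. They held 121, 122 and 171 reads per 1000000 library reads in mice 1.1, 1.2 and 1.4 and 150, 116 and 62.9 in mice 3.2, 3.3 and 3.5, and the hosts 2047, 2310 and 2404 against 2419, 1957 and 2376. Mouse 3.5 was thus the lowest for the nested rows and not for their hosts. Whether reads in these rows of polyA libraries come from the small RNAs or from unspliced host RNA was not tested.

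The start of the mRNA was read for the 3 genes that passed, from 10 bases before to 20 bases after the annotated start (RefSeq, GRCm38.p6), because TOP mRNAs are defined there. Capitals mark runs of 6 or more C or T. They lie at chr7:116334171-116334200 for *Rps13*, chr3:90213629-90213658 for *Rps27* and chr7:45128726-45128755 for *Rpl13a*, all on the minus strand.
Rps13: caaacgtcggtgagtggcgtcaCTTCCTgt
Rps27: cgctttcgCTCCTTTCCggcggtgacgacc
Rpl13a: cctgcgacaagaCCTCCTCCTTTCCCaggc
The longest run was 6 bases in *Rps13*, 9 in *Rps27* and 14 in *Rpl13a*, and the letters CTTTC were in the latter pair and not in *Rps13*. Of the standard genes, 57 of 77 matched the table, with 67 starts. On the gene's strand 55.2% of these starts held a run of 6 or more C or T, against 28.7% of all 32851 starts, and on the opposite strand 14.9% against 32.0%. The letters CTTTC were in 20.9% of the members' starts against 3.74% of all, and on the opposite strand in 4.48% against 3.65%. A match of letters is a description of the window and not a test of TOP regulation.

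Other genes of translation were read from lists. Of 72 tested mitochondrial ribosomal protein genes, 0 rose and 1 fell by limma (1.39%, against 5.36% of all genes), with a median of -0.04. At an unadjusted p under 0.05 there were 5 and 6 (15.3% against 24.3%), voom called 0 and 0, and the cohorts did not overlap for 26 of 72 (36.1% against 33.7%). The one was *Mrps18a*, at 1.68 ± 0.0767 against 1.04 ± 0.0264 RPKM (SD, n = 3 each; log2 change -0.50, adjusted p = 0.0370). Next by p were *Mrpl23* (-0.62, adjusted p = 0.0889) and *Mrps10* (-0.58, adjusted p = 0.0928).

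The 20 TOP mRNAs of other families, such as elongation factors, had 0 calls by limma (unadjusted 0 higher and 1 lower, 5.00%; voom 0 and 0) and a median of -0.07. Their smallest p-values were those of *Eif3e* (-0.28, adjusted p = 0.195), *Eef1d* (0.22, adjusted p = 0.213) and *Hnrnpa1* (-0.40, adjusted p = 0.242). The 42 genes of ribosome biogenesis had 0 calls as well (unadjusted 0 higher and 3 lower, 7.14%; voom 0 and 0), with a median of -0.09. Among them *Fbl*, the methyltransferase of ribosomal RNA, was closest (-0.74, adjusted p = 0.0537), followed by *Cirh1a* (-0.34, adjusted p = 0.180) and *Pes1* (-0.45, adjusted p = 0.186). Of 52 tested translation factors, 0 rose and 2 fell (3.85%; unadjusted 0 and 6, 11.5%; voom 0 and 1), with a median of -0.07. *Eif5a2*, an isoform of the hypusine-bearing factor, fell by 1.45 on the log2 scale (adjusted p = 0.0279) and *Eif4e3*, a cap-binding protein, by 0.54 (adjusted p = 0.0493), while *Eif3m* was at -0.86 (adjusted p = 0.0631). The direction of these lists was close to that of all tested genes, whose median was -0.06.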

How the data were processed

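PolyA RNA of sorted KIT+Gr1+ cells from 6 leukemic mice was analyzed, 1 library per mouse, with cohorts taken from the sample labels. The authors made strand-specific polyA libraries, sequenced paired ends of 75 bases, aligned them to GRCm38 with Bowtie2 2.2.1 at default settings, kept primary alignments of Phred quality 20 or more (SAMtools 0.1.19), and assigned reads to Ensembl genes in R. The authors deposited RPKM per gene and mouse, per kilobase of the whole gene span, so that intron length lowers a level and a read of spliced sequence can align to an intronless copy. No column of values was left unused.

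The members and all gene lists were chosen with earlier results of these data known. Protein-coding genes (GENCODE M21) above 0.5 RPKM in at least 1 mouse were tested on log2(RPKM + 0.5) with limma 3.58.1 (R 4.3.3, eBayes, variance trend) and adjusted by Benjamini-Hochberg over 9522 genes, which gives fold changes on that scale and understates those of low genes. The test assumes that mice are independent animals. Reads were recovered from the RPKM steps. They were whole within 0.02 of a read for 56 members and are approximate for 35, *Rps13*, *Rps27* and *Rpl13a* among them. Copies were found with BLAST 2.17.0. Exact permutation tests used scipy 1.17.1, and Python 3.11.15, numpy 2.4.6, pandas 2.3.3 and matplotlib 3.10.9 were used for the rest.

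Named members were those called, the 5 largest rises and 5 largest falls, the 5 highest and 5 lowest levels, members with known roles, and up to 3 genes per translation list with the smallest p. *Rps18*, *Rpl27*, *Rpl10a*, *Rps21*, *Rpl14*, *Gm10180* and the copies of called members were named after their values were seen. Alternatives were other pseudocounts (0.1 and 1), filters, gene types, scalings, variance models, lengths and tests, and leaving out each mouse. Removal of nested small RNA reads, addition of copies and the share of library reads were chosen after seeing the data. Some genes are not reported by name here and are not drawn singly, but counts and medians include them. Protein sequences were not used here.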

Additional observations from a re-analysis of the deposited data

How the results depend on the processing

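No paired analysis was possible because the mouse numbers name single animals and the cohorts share none. Of the settings tried, the count of members higher was 0 in place of 1 with all gene types, centring on the median member, voom on recovered reads, the study's criterion and the members summed with their processed copies. The count lower was 1 in place of 2 with no filter, all gene types, median-of-ratios scaling, sample weights, exon length, voom and the study's criterion, and 0 with processed copies, where the change of *Rpl13a* turned to -0.064. Leaving out single mice gave 0 to 2 members higher and 0 to 2 lower. The median member change ran from -0.09 to 0.11 over the alternatives. Median-of-ratios scaling moved the median of all genes from -0.06 to 0.006, and centring on the median member moved it to -0.173. Without 1 *Hoxa9*/MTV mouse 61 to 76 genes of all tested were called, and without 1 *Hoxa9*/*IRX3* mouse 482 to 761, against 510 with all. The mitochondrial list had 0 lower with no filter, median-of-ratios or quantile normalization and 0 to 1 without single mice. The median of the TOP list was 0.017 after median-of-ratios scaling. Biogenesis genes lower numbered 0 to 2 without single mice, with 2 without mouse 3.2. Translation factors lower numbered 0 with no filter, 1 with median-of-ratios or quantile normalization and 0 to 4 without single mice. The members' share was 2.08% and 1.98% (*Hoxa9*/MTV and *Hoxa9*/*IRX3*) of protein-coding RPKM, 8.78% and 8.92% with pseudogene rows, and 0.636% and 0.667% of library reads. Of the values of single named members under all alternatives, 853 kept their side of the threshold, 22 lost a call, 3 gained one (*Rpl31* and *Rpl37a* without mouse 3.3 and *Rps27a* without mouse 3.2) and 1 call turned. Signs turned in 51 of these 879 values, 28 of them without a single mouse, over 19 members that were not called apart from *Rpl13a*. The cause of these shifts was not tested. With 3 mice per cohort and a median SE of 0.20, small changes were not detectable for most members.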
